A study of Mus musculus with 6 samples.

Results

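Mitochondrial ribosomal proteins were examined through the mRNAs of their genes in mouse hippocampus with and without Dicer1 in forebrain excitatory neurons. The members were all genes whose symbol begins with Mrpl or Mrps, with 1 pseudogene symbol left out, which gave 76 genes among 25896 symbols listed, 47 named for the large subunit and 29 for the small subunit. All 76 passed the filter on low counts, under which 17405 genes were tested. All mice were C57BL/6 males with Dicer1 flox/flox. WT mice had no Cre, and Dicer1-ifKO mice carried CaMKIIa-creERT2, a tamoxifen-activated Cre recombinase under a promoter of forebrain excitatory neurons. Both groups received tamoxifen and were 3 months old, and the tissue was taken 3 weeks after tamoxifen. There were 3 libraries per group, each pooling hippocampal RNA from 3 mice, so that 9 mice per genotype entered them, whereas the design text counts 12. Since WT mice had no Cre, loss of Dicer1 and the presence of the active transgene cannot be told apart, and the other hippocampal cell types kept Dicer1.

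The mitochondrial ribosome is the ribosome inside the mitochondrial matrix, and it makes the few proteins that mitochondrial DNA encodes, all of them subunits of the respiratory chain and of ATP synthase. Its RNA comes from mitochondrial DNA, while every one of its proteins is encoded in the nucleus, made on cytosolic ribosomes and imported. Some of these proteins descend from those of bacterial ribosomes and sit close to the RNA core, and others were added during the evolution of mitochondria and lie mostly at the surface. Neurons depend on this supply of respiratory subunits because firing and synaptic transmission use much ATP.

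Counts summed over 1 representative transcript per gene ranged from 11832794 to 20677845 per library, with WT replicate 1 the lowest. On the leading principal component (30.4% of the variance) this library lay at -26.6, and the other 5 libraries at 1.5 to 10.1. Dicer1 itself was measured at 55.6, 62.0 and 55.8 CPM (reads per library scaled to a common total) in WT and at 58.2, 62.9 and 58.0 CPM in Dicer1-ifKO. These counts run over the whole transcript and do not single out the floxed part, so they are no check of the labels. All 7 markers of hippocampal excitatory neurons were present, with a summed level of 5196 to 5344 CPM in WT and 5337 to 5700 CPM in Dicer1-ifKO. One by one, 4 of these markers had a positive and 3 a negative log2 fold change (Dicer1-ifKO over WT), with a median of 0.007. In bulk tissue, fewer cells of a type and less RNA per cell cannot be told apart.

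No mitochondrial ribosomal protein mRNA changed between Dicer1-ifKO and WT in edgeR's quasi-likelihood test at a Benjamini-Hochberg adjusted p of 0.05. None of the 76 genes was called higher, where 0.126% of all genes tested were, and none was called lower, where 0.0345% were, or 0.161% in both directions together. With 28 calls among 17405 genes, a count of 0 among 76 is near that background. DESeq2's Wald test and limma's voom with sample weights also called 0 of the 76. At an unadjusted p below 0.05 there were 2 genes lower, Mrpl34 and Mrps18c, and 0 higher, whereas 4.8% of all genes tested were lower and 5.63% higher at that level.

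The fold changes were small and mostly of 1 sign. The log2 fold change (Dicer1-ifKO over WT) was negative in 63 of the 76 genes and positive in 13, whereas 51.0% of all genes tested were negative. Its median over the 76 genes was -0.065, a difference of -4.4%, with an interquartile range of -0.11 to -0.02, and the median over all genes tested was -0.0032. The spread of the 76 values (SD 0.08) was about as large as the median standard error of 1 gene (0.08). For 64 of the 76 genes the 95% confidence interval lay inside a 1.25-fold difference in either direction. In 11 genes it reached a difference that large on the lower side, and in 1 gene, Mrpl52, on the higher side.

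**Figure D1:**
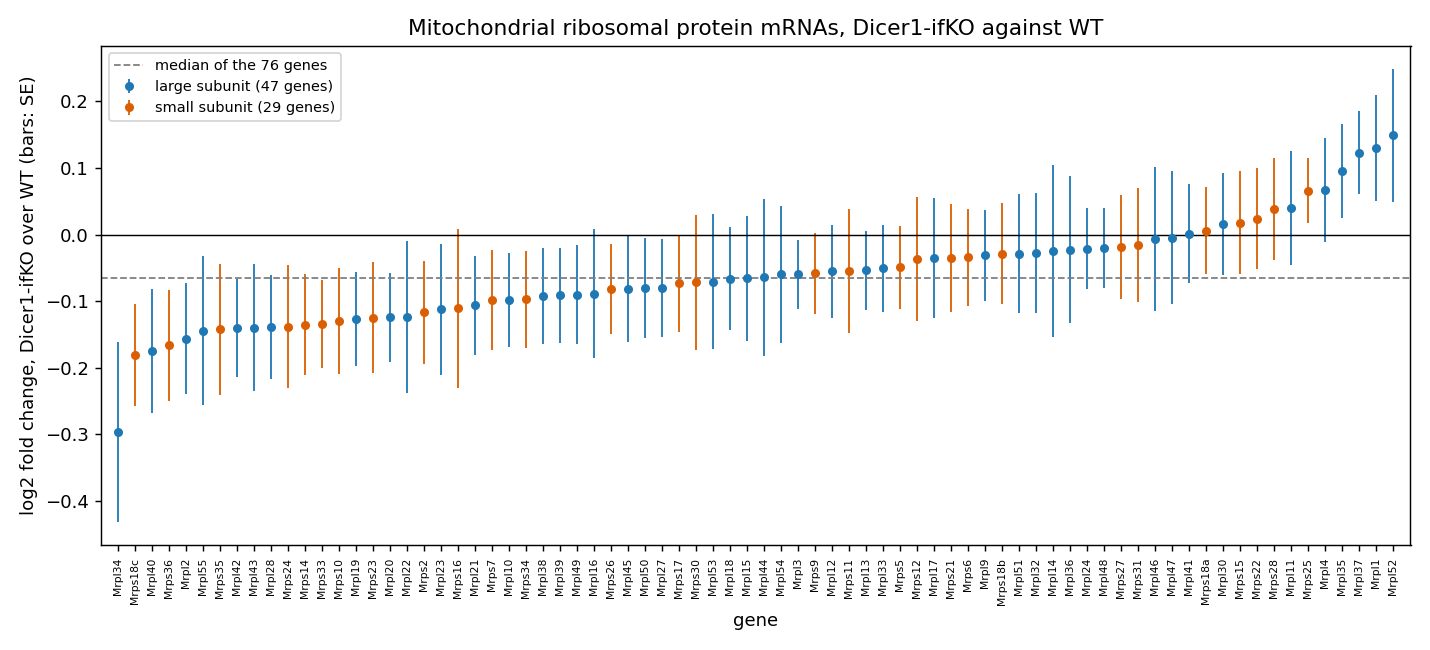
Log2 fold change (Dicer1-ifKO over WT, vertical axis) of each of the 76 genes, ordered from lowest to highest, with bars of 1 standard error, 3 libraries per group and colours for the subunit in the symbol. The dashed line marks the median of -0.065, and 63 of the points lie below 0.

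Among the genes with the lowest fold changes, Mrpl34 encodes a small large-subunit protein with a bacterial counterpart. It had the lowest level in CPM among the members whose transcript length was known, with 92, 105 and 127 counts in WT and 105, 110 and 108 counts in Dicer1-ifKO. In CPM this was 7.83, 6.61 and 7.81 in WT and 6.82, 6.11 and 5.27 in Dicer1-ifKO. WT replicate 2 lay below the highest Dicer1-ifKO library, so the groups overlapped. The log2 fold change was -0.30 with a standard error of 0.14 (95% interval -0.58 to -0.01, unadjusted p = 0.041, adjusted p = 0.453).

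Mrps18c encodes the small-subunit protein that corresponds to bacterial S18. It was measured at 23.4, 22.6 and 24.8 CPM in WT and at 21.7, 20.6 and 20.4 CPM in Dicer1-ifKO, so that every Dicer1-ifKO library was below every WT library. The log2 fold change was -0.18 ± 0.08 (SE, n = 3 libraries per group), and the adjusted p by edgeR was 0.397, the smallest among the 76 genes. Mrps36 was measured at 19.0, 18.5 and 19.0 CPM in WT and at 15.8, 17.6 and 16.8 CPM in Dicer1-ifKO, again without overlap, with a log2 fold change of -0.17 ± 0.08. Its protein was first listed as a small-subunit component and is now known as part of the 2-oxoglutarate dehydrogenase complex of the citric acid cycle, so it is a member by symbol. Mrpl2, whose protein lies beside the peptidyl transferase centre in the large subunit, was at 19.0, 18.3 and 20.6 CPM in WT and at 17.1, 17.2 and 17.6 CPM in Dicer1-ifKO.

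The groups did not overlap for Mrpl2 either, whose log2 fold change was -0.16 ± 0.08. The other genes of this end overlapped between the groups. Mrpl40, a large-subunit gene without a bacterial counterpart, was at 15.8, 14.4 and 15.6 CPM in WT and 14.4, 13.0 and 13.1 CPM in Dicer1-ifKO. Mrpl55 was at 16.8, 11.9 and 16.0 CPM in WT and 12.9, 13.2 and 13.9 CPM in Dicer1-ifKO, and WT replicate 2 was the lowest of all 6 libraries. Mrps35 was at 18.5, 15 and 17 CPM in WT and 16.8, 14.3 and 14.6 CPM in Dicer1-ifKO. The Dicer1-ifKO values of these 3 genes thus reached into the WT range. Mrpl42 was at 32.7, 35.9 and 30.9 CPM in WT and 29.2, 32.1 and 29.0 CPM in Dicer1-ifKO, where 1 Dicer1-ifKO library lay inside the WT range. The log2 fold changes of these genes were -0.17, -0.14, -0.14 and -0.14 in that order. Mrps33, a small-subunit gene with one of the smallest unadjusted p values (0.057), was at 48.1, 43.2 and 42.4 CPM in WT and at 42.1, 41.2 and 38.3 CPM in Dicer1-ifKO. All 3 of its Dicer1-ifKO libraries were below all 3 WT libraries, by a margin of less than 1 CPM, and its log2 fold change was -0.13 ± 0.07.

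At the other end, the highest fold change belonged to Mrpl52, a large-subunit gene without a bacterial counterpart. It was at 15.2, 13.0 and 16.1 CPM in WT and at 15.2, 15.8 and 17.9 CPM in Dicer1-ifKO, where the groups overlapped, with a log2 fold change of 0.15 ± 0.10. Mrpl1, which encodes the protein of the mobile stalk by which spent transfer RNA leaves the ribosome, was at 20.3, 20.3 and 19.2 CPM in WT and at 21.2, 23.1 and 20.9 CPM in Dicer1-ifKO. Every Dicer1-ifKO library of Mrpl1 was above every WT library, and the log2 fold change was 0.13 ± 0.08. Mrpl37 was at 39.4, 42.9 and 39.1 CPM in WT and at 43.1, 44.2 and 44.9 CPM in Dicer1-ifKO. Here too the groups did not overlap, and Mrpl37 had the smallest unadjusted p of the genes with a positive fold change (0.062, log2 fold change 0.12 ± 0.06, adjusted p = 0.517 by edgeR).

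Mrpl35 was at 24.5, 23.6 and 24.5 CPM in WT and at 25.3, 26.4 and 25.7 CPM in Dicer1-ifKO, with no overlap and a log2 fold change of 0.10 ± 0.07. Mrpl4, whose protein lines the exit tunnel for the new polypeptide, was at 35.0, 30.0 and 28.0 CPM in WT and 33.0, 30.6 and 33.2 CPM in Dicer1-ifKO. Mrpl11, a protein of the stalk base where translation factors bind, was at 29.8, 30.1 and 38.5 CPM in WT and 32.9, 36.0 and 32.8 CPM in Dicer1-ifKO. In both of these genes the WT range enclosed all 3 Dicer1-ifKO values, and the log2 fold changes were 0.07 ± 0.08 and 0.04 ± 0.09. Mrps28 was at 21.2, 21.1 and 20.6 CPM in WT and 20.8, 21.3 and 22.4 CPM in Dicer1-ifKO, with overlapping groups (log2 fold change 0.04 ± 0.08). Mrps25, also among the genes with the highest fold changes, is described with its transcripts further on.

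**Figure D2:**
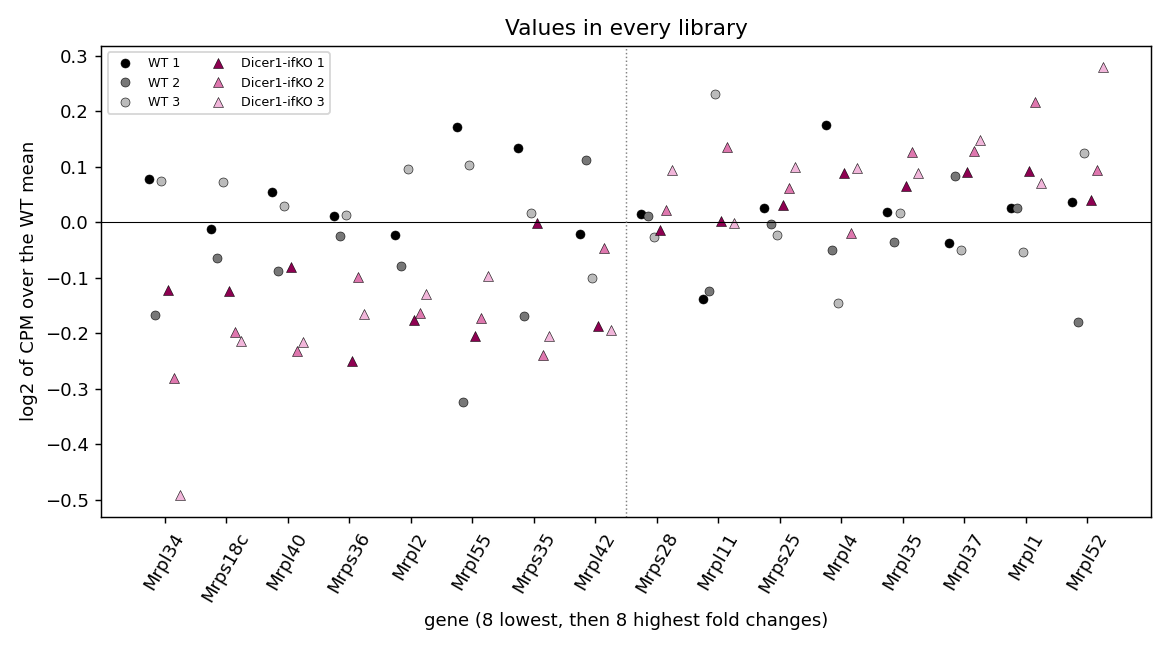
Value in each of the 6 libraries (log2 of CPM over the gene's WT mean) for the 8 genes with the lowest and the 8 with the highest fold changes; circles are WT and triangles Dicer1-ifKO libraries. Groups are apart for Mrps18c, Mrps36 and Mrpl2 on the left and for Mrps25, Mrpl35, Mrpl37 and Mrpl1 on the right.

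Mrps18a, Mrps18b and Mrps18c are 3 nuclear paralogs of the single bacterial S18 gene, and their proteins occupy different places in the mitochondrial ribosome. The protein of Mrps18a has been found in the large subunit in spite of its symbol, as has that of Mrps30. Mrps18a was at 36.3, 34.2 and 36.8 CPM in WT and 34.7, 37.1 and 35.8 CPM in Dicer1-ifKO, with fully overlapping groups and a log2 fold change of 0.01 ± 0.06. Mrps18b was at 22.3, 22.5 and 21.2 CPM in WT and 21.8, 20.9 and 21.8 CPM in Dicer1-ifKO, with a log2 fold change of -0.03 ± 0.08. Only the third paralog, Mrps18c, had groups that did not overlap, and the difference between the paralogs was not tested.

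In 13 of the 76 genes (17.1%) all 3 Dicer1-ifKO libraries were below all 3 WT libraries, where 8.08% of all genes tested were. The reverse order held in 4 genes (5.26%), where 7.99% of all genes tested showed it. Among 3464 genes whose representative transcript lay in the members' interquartile range of length (797 to 1858 bases), the shares were 10.8% and 3.75%. The 49 genes not named by the rule in the processing section had log2 fold changes from -0.14 to 0.02, and 45 of them were negative. Their counts per library ran from 98 to 1187, and their lowest adjusted p by edgeR was 0.564. That rule had taken out the 8 highest fold changes, all positive, the 8 lowest and the 5 smallest p. The range, the count of signs and the lowest p of these 49 genes are therefore partly set by it.

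Symbols of both subunits were mostly negative. Large-subunit symbols were negative in 39 of 47 genes with a median log2 fold change of -0.06, and small-subunit symbols in 24 of 29 with a median of -0.07. The 48 genes with a bacterial counterpart had a median of -0.06 with 40 negative, and the 28 without one had a median of -0.08 with 23 negative. The interquartile ranges were -0.11 to -0.03 and -0.10 to -0.02, so the values of the 2 kinds of protein overlapped. Splitting both ways at once gave medians of -0.06 for 30 large-subunit symbols with a counterpart and -0.07 for 17 without. For small-subunit symbols it was -0.06 for 18 with a counterpart and -0.08 for 11 without. The split goes by symbol, so Mrps18a, Mrps30 and Mrps36 are counted as small-subunit, although their proteins are placed elsewhere.

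The libraries did not contribute equally. For each gene the deviation of its log2 CPM from its mean over the 6 libraries was taken, and the median over the 76 genes was 0.08, -0.01 and 0.01 in WT replicates 1, 2 and 3 and -0.03, -0.05 and -0.01 in the Dicer1-ifKO replicates. WT replicate 1 was thus the highest library, with 59 of the 76 genes above their mean, and Dicer1-ifKO replicate 2 the lowest, with 24. WT replicate 2 and Dicer1-ifKO replicate 3 differed by less than 0.01 in these medians. Over all genes tested the same medians lay within 0.01 of 0 in every library.

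Transcript length moved with the libraries as well. Over 15826 genes with a known length, the rank correlation of a gene's deviation with transcript length was -0.26, 0.07 and -0.12 in the WT libraries and 0.12, 0.14 and 0.08 in the Dicer1-ifKO libraries, given as a description over genes that share each library. The 72 members with a known length had a median of 1208 bases, against 2688 bases over all genes tested. The 3464 genes in the members' interquartile range of length had median deviations of 0.05, -0.01 and 0.02 in WT and -0.01, -0.03 and -0.02 in Dicer1-ifKO, the same signs as the members. Their median log2 fold change was -0.037 with 62.0% negative, beside -0.065 with 82.9% negative for the members. They were measured less precisely, with a median standard error of 0.11 against 0.08 for the members. The members' values also include genes outside that range of length. The 2 shares are therefore not like for like, and the difference was not tested. When the trend with length and GC content was taken out per library, the members' medians were 0.06, 0.01 and -0.01 in WT and -0.02, -0.05 and 0.01 in Dicer1-ifKO, and the median log2 fold change was -0.042 with 56 of 76 negative. Without WT replicate 1 it was -0.038 with 54 of 76 negative, and with both changes together it was -0.024 with 49 of 76 negative. The part of length and of WT replicate 1 in the negative signs was not tested beyond these values.

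Library by library, the median difference of the 76 genes between a Dicer1-ifKO and a WT library was negative in 9 of 9 pairs, from -0.13 to -0.01. These pairs share libraries and are not independent. With the length and GC trend removed it was negative in 7 of 9 pairs, from -0.11 to 0.02. The 2 positive values involved Dicer1-ifKO replicate 3 against WT replicates 2 and 3. The summed level of the 76 mRNAs was 2141, 2041 and 2060 CPM in WT and 1996, 1992 and 2026 CPM in Dicer1-ifKO. Every Dicer1-ifKO sum was below every WT sum, by 14.5 CPM at the closest, and the group means were 2080 ± 53.1 and 2005 ± 18.6 CPM (SD, n = 3). No marker of another cell type was called. Summed astrocyte markers (5 genes) were at 1040 to 1067 CPM in WT and 1013 to 1037 CPM in Dicer1-ifKO, so that every Dicer1-ifKO sum was below every WT sum. The ranges of the other lists overlapped between the groups. Microglial markers (5 genes) were at 274 to 281 and 274 to 280 CPM, and erythrocyte markers (4 genes, all with a positive log2 fold change, median 0.11) at 52.3 to 73.5 and 56.2 to 74.6 CPM. Choroid plexus markers (4 genes, 2 of them under 1 CPM) were at 26.6 to 40.0 CPM in WT and 20.4 to 34.4 CPM in Dicer1-ifKO, with a median log2 fold change of -0.35 over the 3 genes tested. The part of cell composition in the members' values was not tested.

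**Figure D3:**
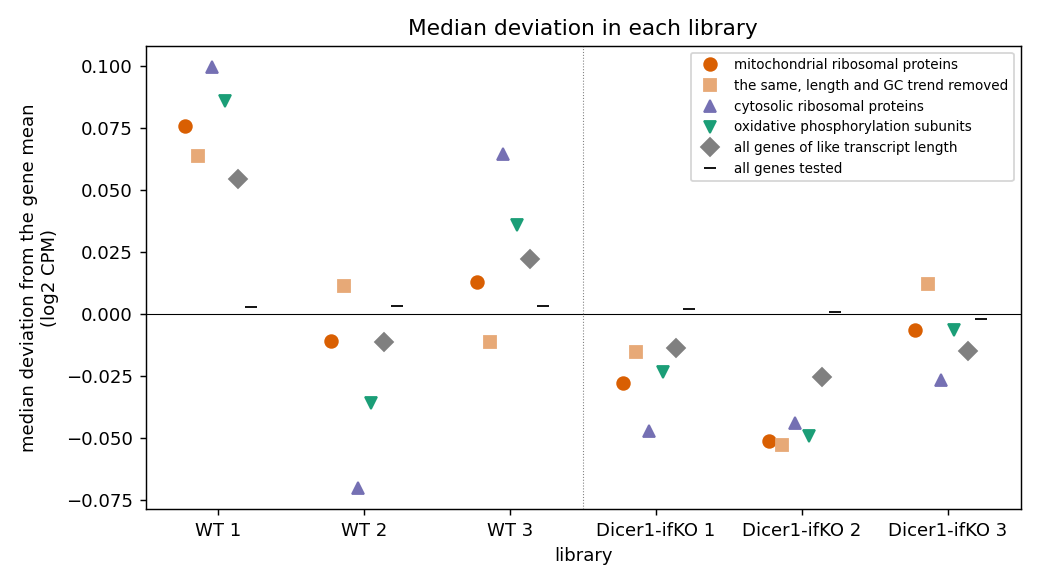
Median over genes of the deviation of log2 CPM from the gene's mean (vertical axis) in each library, for the mitochondrial ribosomal protein genes before and after removal of the length and GC trend, for 2 other groups of genes, for all genes of like transcript length and for all genes tested. WT replicate 1 is the highest library for every group of genes plotted other than all genes tested, which lie within 0.01 of 0.

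Levels were compared between genes per length, as CPM per kb of the representative transcript, for the 72 genes with a known length. They ran from 4.79 to 111 CPM per kb with a median of 17.9, a 23.1-fold range, and 53 of the 72 genes were within 2-fold of the median. Mrpl33 was highest at 113 ± 4.92 CPM per kb in WT and 109 ± 4.80 in Dicer1-ifKO (SD, n = 3), followed by Mrpl13 at 55.9 ± 3.25 and 53.7 ± 3.14. Mrpl3, whose protein reaches the peptidyl transferase centre, was at 50.8 ± 1.69 and 48.7 ± 0.0822, and Mrpl20 at 50.9 ± 3.74 and 46.6 ± 1.41. The representative transcripts of Mrpl3 and Mrpl20 are annotated as targets of nonsense-mediated decay, that of Mrpl20 through a match by nearest ends. Their values per kb are therefore not levels of a coding transcript. The same holds for Mrpl32 and Mrps34 (nonsense-mediated decay), Mrpl28 and Mrpl53 (retained intron), and Mrpl23, Mrpl33, Mrps16 and Mrps24 (processed transcript). Mrpl3 was at 73.1, 68.4 and 71.0 CPM in WT and 68.0, 67.8 and 68.0 CPM in Dicer1-ifKO. Mrpl20 was at 44.7, 39.1 and 39.9 CPM in WT and 39.0, 36.9 and 37.2 CPM in Dicer1-ifKO. In both genes the Dicer1-ifKO libraries were below the WT ones.

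The lowest levels per kb belonged to Mrpl47, at 4.80 ± 0.587 in WT and 4.77 ± 0.399 in Dicer1-ifKO, Mrpl19, Mrpl1 and Mrpl35. Mrpl19 was at 5.77 ± 0.215 and 5.30 ± 0.250, Mrpl1 at 5.60 ± 0.175 and 6.12 ± 0.341, and Mrpl35 at 6.50 ± 0.138 and 6.94 ± 0.149 CPM per kb. All 4 have representative transcripts of 3364 to 5000 bases, and over the 72 genes the rank correlation of level per kb with length was -0.62, a description in which length enters both quantities. Neighbours in the order of levels overlapped over the 6 libraries in 69 of 71 steps. The exceptions were the step from Mrpl33 down to Mrpl13 and that from Mrps14 down to Mrpl35. The median level was 17.7 CPM per kb over 45 large-subunit symbols and 19.1 over 27 small-subunit symbols. By CPM without length the order was different, with Mrpl33 at rank 15 of 72 and Mrpl19 at rank 26.

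**Figure D4:**
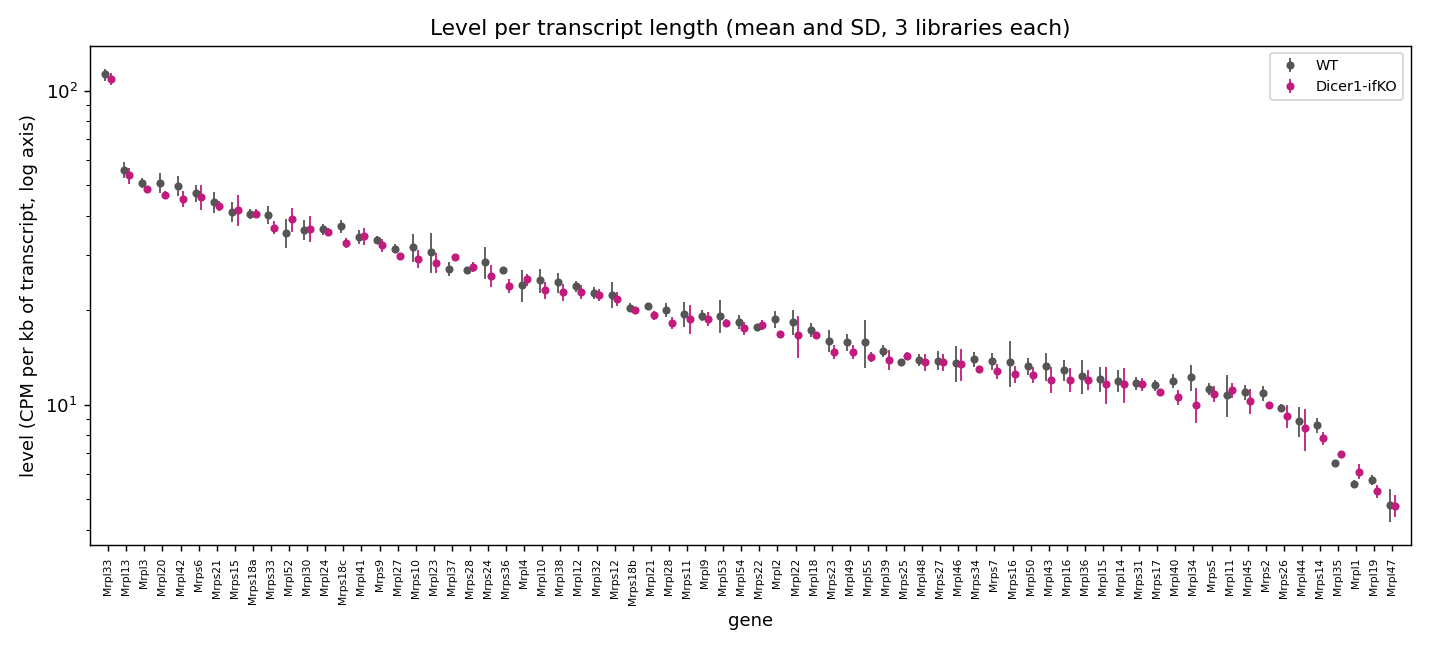
Level per kb of transcript (CPM per kb, log axis) of the 72 genes with a known transcript length, ordered by their mean, with the mean and SD of 3 WT and 3 Dicer1-ifKO libraries. Mrpl33 stands at 111 CPM per kb over all libraries and Mrpl47 at 4.79, and the group means of each gene lie close together against that range.

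Reads in exons that belong to more than 1 transcript or gene were counted for each of them, so a member's count can hold reads of its neighbours. Of the 72 representative transcripts with known exons, 21 shared exon bases with another gene at a mean count of at least 10, and 10 shared more than 25% of them. The strand setting of the counting is not given in the sources used here, so it is not known whether reads of genes on opposite strands were kept apart. Mrps34 shared 66.1% of its 1884 exon bases with Mapk8ip3 on the other strand, a far more abundant kinesin adaptor mRNA, and 40.5% with Nme3 on its own strand. The mean count was 411 for Mrps34 and 7476.5 for Mapk8ip3. Mrps34 was at 27.4, 24.6 and 26.7 CPM in WT and 24.5, 24.5 and 24.5 CPM in Dicer1-ifKO, while Mapk8ip3 was at 444, 459 and 451 and at 475, 440 and 477 CPM. The representative transcript of Mrps34 is annotated as a target of nonsense-mediated decay. The protein-coding Mrps34-001 had a mean count of 247. Mrps18b shared 59.1% with Gm16279, Mrpl24 48.5% with Rrnad1, Mrpl19 39.2% with AW146020 and Mrpl13 27.0% with Mtbp, all on the opposite strand. On the same strand, Mrpl53 shared 86.6% with Ccdc142, the largest share with any 1 gene, at mean counts of 215 and 433. Mrpl48 shared 43.5% with D630004N19Rik and Mrps24 31.7% with Urgcp, also on the same strand. No strand setting keeps such reads apart. For Mrpl13, the transcript Mrpl13-003 without shared bases had a mean count of 1088, beside 1089 for the representative transcript. Mrpl24, whose protein sits near the end of the exit tunnel, was at 46.3, 43.4 and 43.3 CPM in WT and 42.4, 44.7 and 43.6 CPM in Dicer1-ifKO. Mrpl13 was at 72.8, 65.0 and 67.5 CPM in WT and 65.6, 61.9 and 69.6 CPM in Dicer1-ifKO, and Mrpl19 at 28.6, 30.0 and 27.9 and at 27.8, 26.4 and 25.3 CPM. Among Mrpl24, Mrpl13 and Mrpl19, only Mrpl19 had groups that did not overlap.

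Mrps25, a small-subunit gene without a bacterial counterpart on chromosome 6 (chr6:92169525-92184033, minus strand, GRCm38), showed how much the choice of transcript can matter. Its representative transcript of 6073 bases shared 58.2% of them with Nr2c2, a nuclear receptor gene on the opposite strand. Mrps25 was at 84.7, 83.0 and 81.9 CPM in WT and 85.0, 86.9 and 89.2 CPM in Dicer1-ifKO, all 3 Dicer1-ifKO libraries above WT, with a log2 fold change of 0.07 ± 0.05. Nr2c2 was at 106, 109 and 109 CPM in WT and 117, 122 and 120 CPM in Dicer1-ifKO, with a log2 fold change of 0.15 ± 0.05 and an adjusted p of 0.235. The transcript Mrps25-003, annotated as a retained intron of 565 bases inside the gene and free of shared exon bases, had 156, 220 and 204 counts in WT and 155, 172 and 217 counts in the more deeply sequenced Dicer1-ifKO libraries. Used in place of the representative transcript, it gave Mrps25 a log2 fold change of -0.39 ± 0.10 with an adjusted p of 0.143 by edgeR, the opposite sign. It is not a measure of the spliced mRNA, and it was singled out after its values were seen.

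Mrpl33 encodes one of the smallest large-subunit proteins. Its representative transcript Mrpl33-007 (chr5:31596938-31701972, plus strand, GRCm38) is a spliced non-coding transcript of 338 bases that runs into the next gene and shares 43.5% of its exon bases with Bre. Counts of Mrpl33-007 were 461, 616 and 588 in WT and 567, 690 and 718 in Dicer1-ifKO, for a log2 fold change of -0.05 ± 0.07. The protein-coding Mrpl33-001 had fewer reads, 187, 261 and 251 in WT and 192, 264 and 293 in Dicer1-ifKO. Tested among all transcripts, Mrpl33-001 had a log2 fold change of -0.22 ± 0.10 with an adjusted p of 0.483. The level of 111 CPM per kb above rests on the reads and the length of Mrpl33-007, which can include reads of Bre and of Mrpl33-001, so it is not a level of the coding transcript.

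Over all 261 listed transcripts of the 76 genes, 260 were tested in a fit of 60500 transcripts, and 0 were called where 0.0777% of all transcripts were. The lowest adjusted p among them was 0.174 by edgeR, for Mrps25-003. Negative log2 fold changes were found in 215 of the 260, with a median of -0.08, although many of these transcripts share reads and are not independent. When each gene was represented by its most abundant transcript with at most 5% shared exon bases, 70 genes could be included and 18 of them changed transcript. The median log2 fold change was then -0.06, with 52 of 70 genes negative and none called. Of the 18 genes that changed transcript, 7 changed sign. Most of the substituted transcripts are annotated as retained introns, processed transcripts or targets of nonsense-mediated decay. Among those that changed sign, this holds for Mrpl18, Mrpl27, Mrpl47, Mrpl51, Mrps6 and Mrps25. Mrpl17, Mrpl51 and Mrps35 changed because the exons of their representative transcript were unknown. This setting is therefore not a measure of the coding mRNAs free of shared reads.

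The start sites of 28 of the 76 genes lay head to head with that of a protein-coding gene on the other strand, at most 1000 bases apart or overlapping by up to 200 bases in GENCODE M21. Mrpl46 and Mrps11 are such a pair in which both genes are members, 1 of each subunit, and their log2 fold changes were -0.01 ± 0.11 and -0.05 ± 0.09. The partners of the other 26 are of mixed function, among them Sars2, the mitochondrial seryl-tRNA synthetase beside Mrps12, and Peo1, the mitochondrial DNA helicase Twinkle beside Mrpl43. Of these 26 partners 13 had a positive log2 fold change and 0 were called, with a median of 0.01, while 23 of the 26 members were negative with a median of -0.06. Mrps18c and its partner Helq, a DNA helicase, differed in sign. Helq was at 23.1, 28.1 and 25.5 CPM in WT and at 27.3, 32.0 and 28.7 CPM in Dicer1-ifKO. Its log2 fold change was 0.19 ± 0.08 with an adjusted p of 0.404 by edgeR, beside -0.18 ± 0.08 for Mrps18c.

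Promoter windows from RefSeq (GRCm38.p6, 250 bases before to 50 bases after the start) were found for 67 of the 76 genes and searched on both strands, the first window listed per gene being used, for short cores of motifs known from promoters of mitochondrial genes. NRF1, nuclear respiratory factor 1, was searched as GCGCANGCG, ETS factors such as GABPA as CCGGAAG, and YY1 as AGATGGCG. The NRF1 core was in 15 of 67 windows (22.4%), against 6.47% of 27025 genes and 11.9% of the 11327 genes tested that had a window. The ETS core was in 23 windows (34.3%), against 9.12% and 15.3%, and the YY1 core in 8 (11.9%), against 2.06% and 3.36%. At least 1 of the 3 was in 39 windows (58.2%), against 15.8% and 27.1%, and these shares are descriptions without a test.

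Fold changes are given by motif as a description. Members with the NRF1 core had a median log2 fold change of -0.05 with 14 of 15 negative, and those without it -0.07 with 42 of 52 negative. For the ETS core the medians were -0.07 with it (20 of 23 negative) and -0.06 without it (36 of 44). For the YY1 core they were -0.02 in 8 genes with it (5 negative) and -0.07 in 59 without it (51 negative). Over all genes tested that had a window, the medians with and without the core were -0.015 and -0.0006 for NRF1. They were -0.017 and 0.0006 for ETS, and 0.005 and -0.003 for YY1. With the NRF1 core 755 of 1347 of all these genes were negative, and with the ETS core 988 of 1737. The windows below show the pair of members that share 1 promoter region, the 2 genes with the lowest log2 fold change, 2 of those with the highest, and Mrps26 as a gene with overlapping NRF1 cores and an ETS core. All are written 5′ to 3′ on the strand of the gene, and capitals mark the motif letters found.
Mrpl46 (chr7:78783040-78783339, minus strand): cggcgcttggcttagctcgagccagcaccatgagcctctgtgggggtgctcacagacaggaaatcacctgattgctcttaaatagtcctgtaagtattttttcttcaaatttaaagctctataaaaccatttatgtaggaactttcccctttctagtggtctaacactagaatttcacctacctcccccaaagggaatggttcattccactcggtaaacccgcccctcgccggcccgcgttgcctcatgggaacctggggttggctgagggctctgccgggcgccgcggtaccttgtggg
Mrps11 (chr7:78782881-78783180, plus strand): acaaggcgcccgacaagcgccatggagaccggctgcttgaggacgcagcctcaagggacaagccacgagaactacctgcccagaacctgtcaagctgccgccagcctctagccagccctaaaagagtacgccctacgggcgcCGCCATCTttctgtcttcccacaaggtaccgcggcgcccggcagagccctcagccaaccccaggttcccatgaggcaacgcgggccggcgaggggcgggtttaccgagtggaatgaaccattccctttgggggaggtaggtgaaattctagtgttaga
Mrps18c (chr5:100798509-100798808, plus strand): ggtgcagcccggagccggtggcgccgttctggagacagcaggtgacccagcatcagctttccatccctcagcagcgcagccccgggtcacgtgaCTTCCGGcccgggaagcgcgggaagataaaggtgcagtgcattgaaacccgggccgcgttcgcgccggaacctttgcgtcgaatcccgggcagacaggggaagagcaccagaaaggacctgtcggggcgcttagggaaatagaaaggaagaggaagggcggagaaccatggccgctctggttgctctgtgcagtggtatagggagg
Mrpl34 (chr8:71464676-71464975, plus strand): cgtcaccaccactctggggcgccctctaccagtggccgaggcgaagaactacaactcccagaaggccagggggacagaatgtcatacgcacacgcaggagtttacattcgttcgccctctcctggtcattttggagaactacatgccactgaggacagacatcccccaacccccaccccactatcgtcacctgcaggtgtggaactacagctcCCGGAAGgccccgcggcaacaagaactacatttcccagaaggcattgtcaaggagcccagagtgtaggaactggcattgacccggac
Mrpl37 (chr4:107066817-107067116, minus strand): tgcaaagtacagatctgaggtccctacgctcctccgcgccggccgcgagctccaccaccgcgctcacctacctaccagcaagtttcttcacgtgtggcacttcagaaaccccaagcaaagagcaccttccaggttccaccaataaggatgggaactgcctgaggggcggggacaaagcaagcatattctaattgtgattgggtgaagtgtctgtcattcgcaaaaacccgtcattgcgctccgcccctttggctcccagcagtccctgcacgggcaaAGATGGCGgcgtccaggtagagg
Mrpl52 (chr14:54426659-54426958, plus strand): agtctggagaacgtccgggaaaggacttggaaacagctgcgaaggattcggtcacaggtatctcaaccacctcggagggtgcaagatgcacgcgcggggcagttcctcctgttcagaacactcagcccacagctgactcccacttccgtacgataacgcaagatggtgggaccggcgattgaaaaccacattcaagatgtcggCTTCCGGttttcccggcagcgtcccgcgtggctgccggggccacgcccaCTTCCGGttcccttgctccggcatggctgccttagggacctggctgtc
Mrps26 (chr2:130563507-130563806, plus strand): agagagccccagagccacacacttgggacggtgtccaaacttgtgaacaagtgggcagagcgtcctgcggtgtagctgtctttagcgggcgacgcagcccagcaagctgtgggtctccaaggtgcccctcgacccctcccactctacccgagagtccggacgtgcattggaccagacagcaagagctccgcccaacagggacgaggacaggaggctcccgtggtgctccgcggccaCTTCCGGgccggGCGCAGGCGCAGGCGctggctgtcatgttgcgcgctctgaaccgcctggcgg

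The windows of Mrpl46 and Mrps11 cover the same 141 bases on opposite strands. None of the 3 cores lies in that stretch, and the YY1 core in the window of Mrps11 lies beyond it, inside the transcribed part of Mrpl46. The ETS core occurs in Mrps18c and Mrpl34 at the low end of the fold changes and also, at 2 places, in Mrpl52 at the high end. The YY1 core occurs in Mrpl42 at the low end and in Mrpl35 and Mrpl37 at the high end. Other genes at the ends had none of the cores in their windows, namely Mrpl40, Mrps36, Mrpl2 and Mrpl55 (low) and Mrpl1, Mrps25 and Mrpl11 (high). A match of letters is not evidence of binding, and no binding was measured.

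The rest of the machinery of mitochondrial translation was described by lists of genes that the rule did not choose. Of 6 ribosomal subunits with other symbols, 0 were called and 5 were negative, with a median log2 fold change of -0.03. Dap3, a small-subunit GTP-binding protein, was at 66.7 ± 2.63 CPM in WT and 65.7 ± 2.98 CPM in Dicer1-ifKO (SD, n = 3), and Ict1, a peptidyl-tRNA hydrolase built into the large subunit, at 45.9 ± 1.44 and 44.4 ± 0.496 CPM. Gadd45gip1 was at 29.4, 28.3 and 29.8 CPM in WT and 28.2, 24.6 and 26.9 CPM in Dicer1-ifKO, the largest difference of the 6 at -0.14 ± 0.07. Aurkaip1 was at 25.8 ± 0.998 and 24.9 ± 1.94 CPM.

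Of 28 assembly factors and rRNA-modifying enzymes, 0 were called and 17 were negative, with a median of -0.03. Rpusd4, a pseudouridine synthase of the mitochondrial large rRNA, had the smallest p of the list. It was at 7.58, 8.12 and 6.33 CPM in WT and 5.58, 5.27 and 5.27 CPM in Dicer1-ifKO, without overlap, with a log2 fold change of -0.45 ± 0.14 and an adjusted p of 0.210 by edgeR. Nsun4, an rRNA methyltransferase, was at 16.6 ± 4.53 and 13.3 ± 2.67 CPM, the GTPase Noa1 at 27.3 ± 0.599 and 24.9 ± 1.38 CPM, and the helicase Dhx30 at 93.4 ± 3.10 and 101.6 ± 5.08 CPM (WT and Dicer1-ifKO, SD, n = 3).

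Translation factors and mRNA carriers (16 genes, 12 negative, 0 called) had a median of -0.07. Gfm2, a recycling factor, was at 105, 101 and 103 CPM in WT and 92.6, 98.4 and 92.3 CPM in Dicer1-ifKO, without overlap, with a log2 fold change of -0.12 ± 0.05 and an adjusted p of 0.365. Tufm, the elongation factor that delivers aminoacyl-tRNA, was at 37.3 ± 0.777 and 34.7 ± 0.797 CPM, and the inner-membrane insertase Oxa1l at 39.1 ± 0.851 and 41.6 ± 1.86 CPM. Aminoacyl-tRNA synthetases and the amidotransferase (22 genes, 17 negative, 0 called) also had a median of -0.07. Yars2, the tyrosyl-tRNA synthetase, was at 15.1, 14.9 and 13.5 CPM in WT and 11.9, 11.3 and 12.3 CPM in Dicer1-ifKO, without overlap and with an adjusted p of 0.277 by edgeR. Pars2, the prolyl-tRNA synthetase, was at 6.82 ± 0.317 and 5.54 ± 0.442 CPM.

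Genes of mitochondrial DNA transcription and replication were listed together with nuclear regulators of mitochondrial genes. This joint list (18 genes, 0 called) was negative in 8 and had a median of 0.01. Tfb2m, a transcription factor of the mitochondrial polymerase, was at 28.5 ± 1.16 CPM in WT and 25.7 ± 0.193 CPM in Dicer1-ifKO, Tfam at 28.3 ± 0.536 and 26.3 ± 0.701, Pprc1 at 25.3 ± 0.593 and 23.7 ± 0.278, and the nuclear receptor Esrra at 29.7 ± 0.530 and 32.8 ± 2.66. The 13 protein-coding transcripts of mitochondrial DNA, the templates of this ribosome, were not called either, and 10 of them were positive with a median of 0.02. Among them mt-Atp8 was at 2668, 2582 and 1980 CPM in WT and 2633, 2784 and 2549 CPM in Dicer1-ifKO, and WT replicate 3 was the low library. The 2 groups of nuclear genes nearest in kind had medians close to that of the members. The median was -0.065 over 82 cytosolic ribosomal protein genes, 71 of them negative, and -0.050 over 82 genes of oxidative phosphorylation, 67 of them negative. No gene of either group was called, and no difference between these groups and the members was tested. Their median deviation was highest in WT replicate 1 as well, at 0.10 and 0.09.

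Under every alternative setting the count of called members was 0 in each direction. The median log2 fold change over the members stayed negative, from -0.085 without Dicer1-ifKO replicate 3 to -0.024 with the length and GC trend removed and WT replicate 1 left out. Without WT replicate 2 there were 12 genes lower and 1 higher at an unadjusted p below 0.05, and the lowest adjusted p was 0.224 by edgeR. In the fit of all 6 libraries these counts were 2 and 0. Calls over all genes at the adjusted threshold were also more frequent without WT replicate 2, 105 of 17584 against 28 of 17405. The share of all genes at the unadjusted p is not given for that setting, so the 12 cannot be set against a background.

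**Figure D5:**
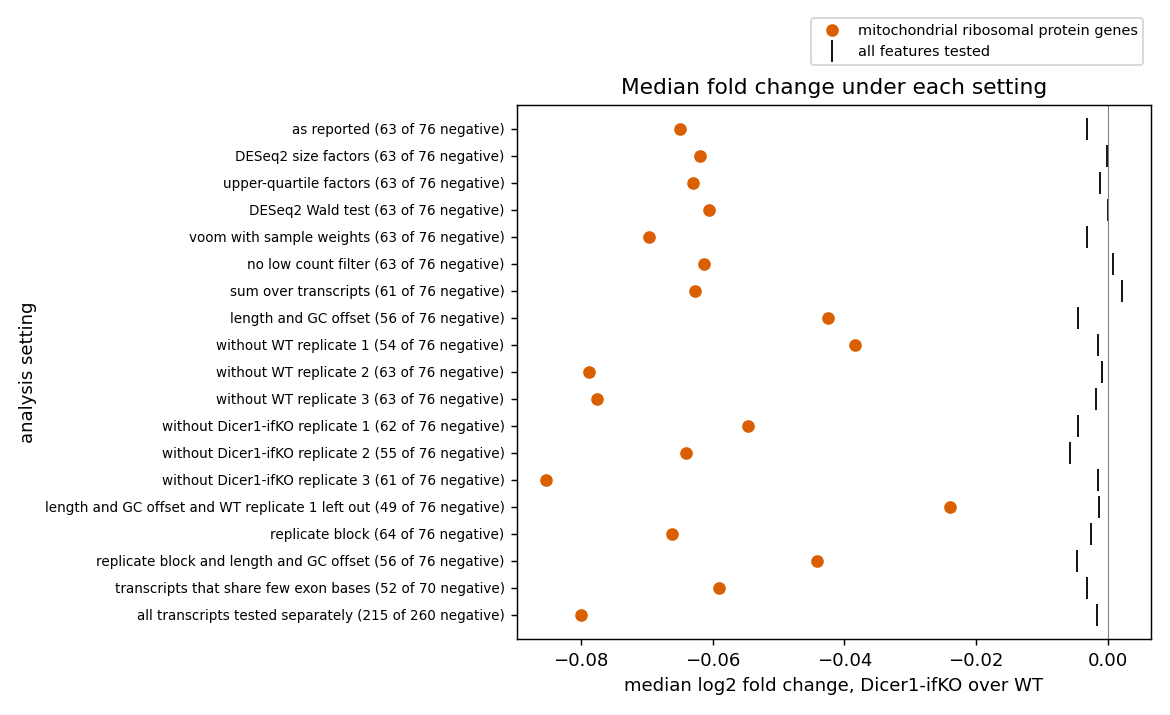
Median log2 fold change (Dicer1-ifKO over WT, horizontal axis) over the mitochondrial ribosomal protein genes and over all features tested under each analysis setting, with the number of negative genes or transcripts in brackets. The members' median is below that of all features in all settings plotted, by 0.02 at the least.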

How the data were processed

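mRNA of 6 hippocampal pools, called biological replicates in the labels, was sequenced from stranded libraries. The submitters' processing notes name the build GRCm38 and the tools TopHat2 2.0.6, Bowtie2 2.0.5 and CASAVA 1.8.2. The counter, annotation release and strand setting were not given in the sources used here. The authors deposited a raw count per transcript, which was tested here, and a normalised signal, per the file headers, equal to the count over 1 factor per library (0.72 to 1.28), which was not used for tests. The design had assumed counts per gene. Reads in shared exons were counted for each transcript, so 1 transcript stood for each symbol, the one with most reads over the 6 libraries.

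The comparison used the quasi-likelihood F-test of edgeR 4.0.16 (R 4.3.3) with TMM, genotype as the term, filterByExpr at a minimum count of 10 and Benjamini-Hochberg adjustment over 17405 genes at a threshold of 0.05. It was tested on simulated data. CPM were scaled after TMM. Lengths came from GENCODE M21 (53 members by identical coordinates, 19 by the nearest ends within 500 bases), and the length and GC offset from smooth fits per library (mgcv 1.9.3). A count of 3 corresponded to 0.146 to 0.255 CPM, and intervals cover the spread between pools. No 2 libraries of the same group agreed within sampling noise (chi-square per degree of freedom 1.75 to 4.31).

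Members and lists were chosen with earlier results of these data known. Members named were any called, the 8 lowest and 8 highest log2 fold changes at a mean log2 CPM of at least 1, the 5 smallest p, the 4 highest and lowest levels per kb, those sharing over 25% of exon bases with a gene on the other strand, and the Mrps18 paralogs. Other lists name any called gene and up to 4 with the smallest p. The 2 mitochondrial rRNA genes were not analysed here. Alternatives were other scalings, DESeq2 1.42.0, voom (limma 3.58.1), no filter, other uses of transcripts, the offset, each library left out and a replicate block; the use of transcripts with few shared exon bases was chosen after seeing the data.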

Additional observations from a re-analysis of the deposited data

How the results depend on the processing

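No member was called under any alternative, and the median log2 fold change over the members (-0.065) moved by less than the spread between replicates (SD 0.04) in all but 1, the length and GC offset with WT replicate 1 left out, where it was -0.024. That spread is large beside the median and is raised by WT replicate 1, whose members' median was 0.08 against -0.01 and 0.01 in the other WT libraries. A move smaller than it is therefore not a sign of stability. With each library left out in turn the members' median ranged from -0.085 to -0.038, and the log2 fold change of Mrpl47 from -0.081 to 0.084, Mrpl24 from -0.039 to 0.0098, Mrpl11 from -0.026 to 0.18, Mrps18a from -0.027 to 0.030 and Mrpl4 from -0.0022 to 0.15. The sign also turned for Mrpl47 with voom (0.026), the sum over transcripts (0.0038), the offset (0.0030) and transcripts with few shared exon bases (0.028). It turned for Mrpl24 with the offset (0.010) and those transcripts (0.070), for Mrps18a with voom (-0.0065) and with all transcripts tested separately (-0.0091), and for Mrps25 with transcripts of few shared exon bases (-0.39). With the offset and WT replicate 1 left out it turned for Mrpl13 (0.016), Mrps18b (0.0023), Mrpl24 (0.040), Mrpl47 (0.097) and Mrpl11 (-0.0057). The cause of these turns was not tested.

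The labels state no pairing of libraries. Deviations from the group mean correlated at -0.07, 0.03 and -0.09 between same-numbered libraries. With 3 libraries per group, these values show no pairing by number but cannot settle whether there was one. With the replicate block 0 members were called and the median was -0.07. With the block and the offset it was -0.04, and Mrpl24 (0.010) and Mrpl47 (0.00064) turned sign. Standard errors of 0.05 to 0.14 per gene limit what single genes can show.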
